A study of Mus musculus with 6 samples.

Results

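The replication-dependent histone genes are the genes that make the bulk of histone protein while DNA is copied. They were taken here as every gene whose symbol in the count tables starts with Hist1h, Hist2h, Hist3h or Hist4, which gave 70 of 55341 symbols: 6 linker histone H1 genes, 20 H2A, 19 H2B, 12 H3 and 13 H4. GENCODE M21 annotates 67 of them as protein coding and 3 as pseudogenes. They were measured by RNA-seq in mouse cerebellar granule neurons (CGNs), in 3 DMSO and 3 GSK-126 libraries. GSK-126 inhibits EZH2, the enzyme that trimethylates histone H3 on lysine 27. The cultures came from granule neuron precursors of CD1-IGS mice at P6-P8, purified on a Percoll gradient, with the cells of pooled litters forming a replicate. Both groups had received AraC, which blocks cell division, at DIV2 (the second day in vitro), and then vehicle or drug once at DIV3, with RNA taken at DIV5 per the methods of the study. The labels also name CGNs and DIV3 but give the tissue as cerebellum and the time as D3, and the dose used at DIV3 is not given in the sources used here.

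The nucleosome is built from H2A, H2B, H3 and H4, and H1 binds the DNA between nucleosomes. The mRNAs of replication-dependent histone genes rise in S phase and normally end just after a short hairpin, the histone stem-loop, which the protein SLBP binds in place of a poly-A tail. Some of these genes also make polyadenylated mRNA that runs past the stem-loop, which is known from differentiated cells. The libraries were made with poly-A enrichment, so they report polyadenylated transcripts of these genes and take up the S phase form only poorly.

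The stem-loop is shown first, because it marks where the replication-dependent transcript is cut and thus how far an annotated transcript runs past that place. The 16 bases of the histone stem-loop consensus were found in the annotated 3′ UTR of 45 of the 70 genes, in GENCODE M21 transcripts (GRCm38, transcript strand, 5′ to 3′). For each gene, the result is that of the transcript with the longest annotated 3′ UTR. The lines below give it in 6 genes with counts enough for a test and in 2 with no count in any library. The capitals mark the stem-loop and the lower case the 5 bases on each side.
Hist3h2ba (H2B, chr11:58949344-58949369, + strand): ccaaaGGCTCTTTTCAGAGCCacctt
Hist1h1c (H1, chr13:23739507-23739532, + strand): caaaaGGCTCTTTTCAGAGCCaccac
Hist3h2a (H2A, chr11:58955167-58955192, + strand): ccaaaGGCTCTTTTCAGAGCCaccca
Hist2h3c2 (H3, chr3:96238480-96238505, - strand): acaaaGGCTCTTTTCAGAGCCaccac
Hist1h4i (H4, chr13:22040961-22040986, - strand): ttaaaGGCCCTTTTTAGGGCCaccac
Hist2h4 (H4, chr3:96262934-96262959, - strand): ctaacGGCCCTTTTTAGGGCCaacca
Hist1h4f (H4, no count): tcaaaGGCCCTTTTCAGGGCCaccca
Hist1h2bb (H2B, no count): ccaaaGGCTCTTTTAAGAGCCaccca
The stem differed by histone type. All 33 stem-loops of H1, H2A, H2B and H3 genes opened with GGCTC, and 25 of these were identical over all 16 bases. All 12 of H4 genes opened otherwise, with GGCCC in 10 of them and with GGTCC in 2. Of the 5 genes without any count in which the letters were found, 3 carried a stem-loop identical to that of a tested gene, and the 2 shown above did not.

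The letters were absent from that transcript in 22 coding genes, and other transcripts of these genes were not scored. In 17 of these the annotated 3′ UTR was shorter than 100 bases. Most of the 17, such as Hist1h1b, Hist1h2ai, Hist1h3h and Hist1h4k, are annotated with 0 to 2 bases after the stop codon. There was thus no sequence to search, and the absence does not show that these genes lack a stem-loop. Hist1h2bc and Hist2h2be, H2B genes with annotated 3′ UTRs of 742 and 2192 bases, also lack the letters there.

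The depth was 7407189 to 13092763 counts on genes per library, and the 70 histone genes together held 0.00812% to 0.0141% of them. Between 30 and 49 of the 70 genes had at least 1 count in a library. Of the granule neuron markers, Neurod1, a transcription factor of the granule lineage, was at 365.6 to 963 CPM (reads of a gene scaled to library size with TMM factors). Of 6 granule precursor markers, Atoh1, which defines dividing precursors, was at 0 to 0.754 CPM, and Gli1 was at 0.115 to 1.12 CPM. The others were higher, from Gli2 at 5.97 to 16.7 CPM up to Ccnd1 at 121.1 to 229.5 CPM. The proliferation genes Mki67 and Top2a were at 74.4 to 135.7 CPM and 78.2 to 125.2 CPM. Other cell types were present, with 6 astroglia markers summing to 2172 to 7456 CPM and 9 fibroblast and vascular markers to 7395 to 10770 CPM. Replicate 2 of both groups stood apart from the other libraries by its low astroglia sum. GSK-126 acts on the EZH2 protein, so no transcript level checks the treatment labels.

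The reads counted on these genes lay in few of them. Only 12 genes had counts enough to be tested, and they held 92.8% of the 6990 counts that all 70 genes had over the 6 libraries. Hist1h1c, Hist3h2ba and Hist1h2bc alone held 61.4%. Of the other 58 genes, 10 had no count in any library, and 48 had between 1 and 41 counts over all 6. A count of 0 allows up to 3 counts, or 0.227 to 0.401 CPM depending on the library, and covers counting error only.

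The genes without a count were Hist1h2aa, Hist1h2an, Hist1h2ao and Hist1h2ap among H2A, Hist1h2ba, Hist1h2bb, Hist1h2bq and Hist1h2br among H2B, Hist2h3c1 among H3 and Hist1h4f among H4. Hist1h2aa and Hist1h2ba are histones of the testis, as is the linker histone Hist1h1t, which had 1 count. Such a 0 is uncertain for many of these genes, because near-identical copies share their sequence and a read that maps to several places was not counted. In 5 of the 10 genes, at least 50% of all 100-base windows of the exons also occur in another gene of the annotation, up to 94.8% in Hist1h2bq. All exons of Hist2h3c1 lie within exons of Gm20634 on the same strand.

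By histone type, the untested H1 genes had 1 to 41 counts over all libraries, with Hist1h1d the highest, and the untested H2A genes 0 to 30. The untested H2B genes had 0 to 31 counts, the untested H3 genes 0 to 23 and the untested H4 genes 0 to 20. The groups did not overlap in CPM in 2 untested genes, Hist1h2ai and Hist1h2af, both named for this after their values were seen. Hist1h2ai had 5, 6 and 5 counts in DMSO and 2, 0 and 0 in GSK-126. Hist1h2af had 5, 2 and 2 against 0, 0 and 0. Of the windows of their exons, 88.4% in Hist1h2ai and 65.3% in Hist1h2af also occur in another gene. Over all tested genes 9.44% did not overlap, but that share covers no untested gene. How often groups separate at counts this low was not measured. No change passed a test at this depth in the untested genes. A fit without the filter on low counts, in which 60 of the 70 genes had a value, called 0 of them. It gave 1 an unadjusted p under 0.05 (edgeR).

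Most counts lay in genes whose annotated transcript runs well past the stem-loop. Of the 23 genes whose annotated transcript runs at least 100 bases past the stem-loop, 8 were tested, and the 23 held 71.0% of the summed CPM of all histone genes. Of the 22 genes that end less than 100 bases past it, 1 was tested, and the 22 held 3.81%. The median over the 6 libraries together was 29 counts per gene in the longer set and 4.5 in the shorter set. Longer exons collect more counts, with a median exon length of 1249 bases against 483.5 bases, and per kilobase of exon the medians were 0.215 and 0.159 CPM. The typical gene of both sets was therefore near 0, and the sets differed in their highest members, at 48.2 CPM per kilobase in the longer set and 4.23 in the shorter one. The sets also differed in sequence shared with other genes, at a median of 8.16% of 100-base windows in the longer set and 49.4% in the shorter. Reads that mapped to several places were not counted, and the part of this in the contrast was not tested.

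The remaining genes divided the same way. The 5 genes with a 3′ UTR of at least 100 bases but without the stem-loop letters held 14.9% of the summed CPM, and 2 of them, Hist1h2bc and Hist2h2be, were tested. The 17 coding genes with a shorter 3′ UTR and no letters held 1.74%, and 0 were tested. The 3 pseudogenes held 8.55%, nearly all of it from Hist1h2al. A poly-A signal hexamer (AATAAA or its common variant, ATTAAA) lay in the last 40 annotated bases of 7 of the 12 tested genes and of 9 of the 58 untested ones. It was looked for only in coding genes with a 3′ UTR of at least 40 bases, so pseudogenes and genes with a shorter 3′ UTR could not have it. It lay there in 12 of the 23 genes of the longer set and in 1 of the 22 of the shorter set. The annotation was built in part from polyadenylated transcripts, so these shares and the counts are not independent.

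**Figure D1:**
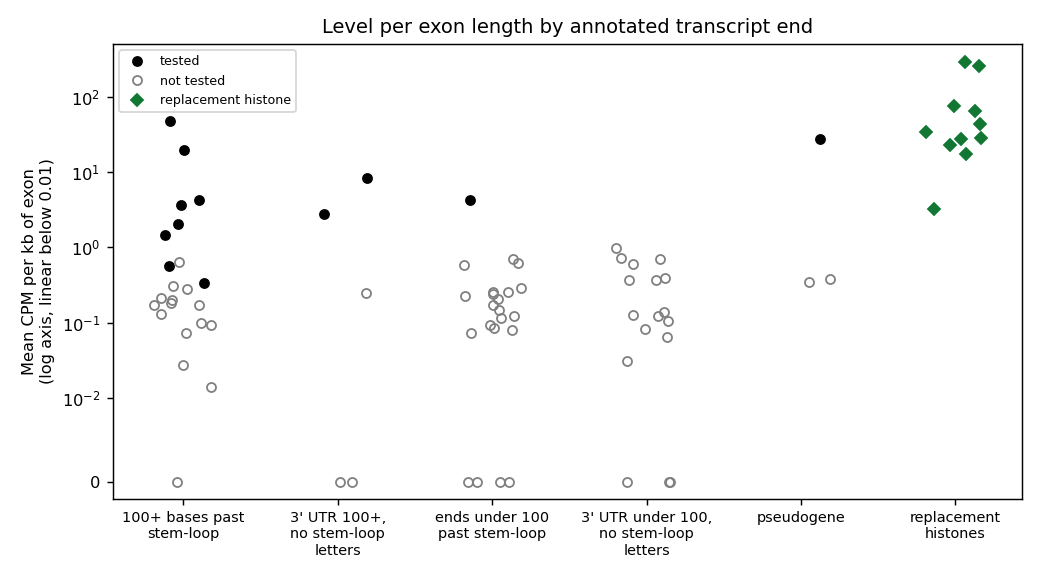
Mean level over the 6 libraries, in CPM per kilobase of exon on a log axis that is linear below 0.01, for each of the 70 histone genes (circles, filled where tested) by annotated transcript end, beside 11 replacement histone genes (diamonds). The filled circles gather in the set that runs at least 100 bases past the stem-loop, from 0.337 to 48.2 CPM per kilobase, and 10 genes lie at 0.

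Among the 12 tested genes the level per kilobase of exon ran from 48.2 CPM in Hist3h2ba to 0.337 CPM in Hist1h2be. Hist3h2ba was the only one whose libraries all lay above those of the next gene in the order, with 39.8 CPM per kilobase as its lowest value against 35.1 as the highest of Hist1h2al. The next places fell to Hist1h2al (27.9 CPM per kilobase, range 18.1 to 35.1), Hist1h1c (19.7, range 7.87 to 32.3) and Hist1h2bc (8.23, range 4.597 to 12.5). Below them came Hist3h2a at 4.30, Hist2h2aa2 at 4.23, Hist1h4i at 3.63, Hist2h2be at 2.79, Hist1h2bg at 2.05, Hist2h3c2 at 1.44 and Hist2h4 at 0.573 CPM per kilobase. In 10 of the 11 steps of this order the ranges of neighbouring genes overlapped.

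Replacement histones, most of which are made outside S phase from ordinary polyadenylated mRNA, give a scale for these levels of polyadenylated RNA. H3f3a and H3f3b, which encode histone H3.3, were at 256.9 and 285.8 CPM per kilobase, while Hist2h3c2, the one tested replication-dependent H3 gene, was at 1.44. H2afz, which encodes H2A.Z, was at 65.3 and H1f0, a linker histone of non-dividing cells, at 74.7 CPM per kilobase. Of the 11 replacement histones, 4 exceeded Hist3h2ba.

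No histone gene passed the test for a change with GSK-126. In edgeR's quasi-likelihood fit over 16729 genes with the replicate number as a block, 0 of 12 were called higher and 0 lower at an adjusted p under 0.05, where 3.35% of all tested genes were called higher and 5.09% lower. The adjusted p of the 12 genes ran from 0.261 to 0.995, and 0 had an unadjusted p under 0.05, also in DESeq2 with the block and in edgeR without it, where 21.5% of all tested genes had one in the fit with the block. The log2 fold change was above 0 in 6 and below 0 in 6, with a median of 0.11 against -0.01 over all tested genes. How small a change the data could show differed among the genes, and the 95% interval of the log2 fold change was narrower than 1 in 6 of the 12.

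**Figure D2:**
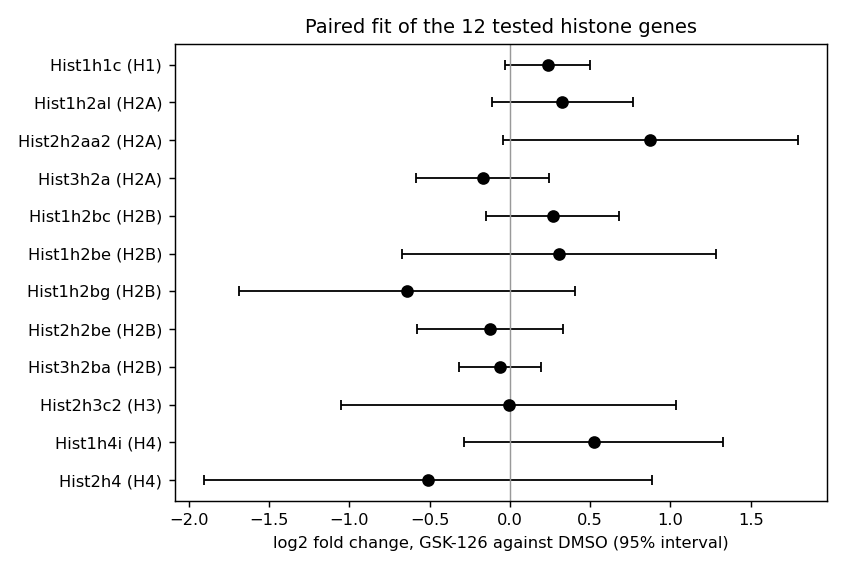
Log2 fold change of GSK-126 against DMSO with its 95% interval from the paired edgeR fit for the 12 tested histone genes, ordered by histone type. All 12 intervals include 0, and the narrowest are those of Hist3h2ba (-0.32 to 0.19) and Hist1h1c (-0.03 to 0.50).

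Hist1h1c (ENSMUSG00000036181.2, chr13:23738808-23740367, + strand) encodes linker histone H1.2 in 1 exon, whose 3′ UTR of 880 bases runs 840 bases past the stem-loop. It was at 40.03, 12.5 and 30.6 CPM in DMSO replicates 1, 2 and 3, and at 50.3, 12.3 and 38.3 CPM in GSK-126 replicates 1, 2 and 3. Replicate 2 was low in both groups, and the 2 groups overlapped. The log2 fold change was 0.24 (SE 0.13, 95% interval -0.03 to 0.50, adjusted p = 0.295 in edgeR), with GSK-126 higher in 2 of 3 pairs. The difference between replicate numbers exceeded that between treatments. Replicate 2 deviated from the mean of replicates 1 and 3 by -1.45 in DMSO and by -1.80 in GSK-126, in log2 of CPM + 0.5.

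Some marker lists had the same order of replicate numbers and others did not. The 6 astroglia markers summed to 7112, 2292 and 3936 CPM in DMSO replicates 1 to 3 and to 7456, 2172 and 3900 CPM in GSK-126. Replicate 2 was thus lowest, and replicate 1 highest, as for Hist1h1c. The sum of 17 S phase and proliferation genes had the same order, at 800.8, 565 and 699.3 CPM in DMSO and 904.8, 600.5 and 754 CPM in GSK-126. So did the sum of 6 microglia markers, at 320.4, 149.1 and 225.1 CPM and 372.5, 204.6 and 277 CPM. The 9 fibroblast and vascular markers followed another order, at 7395, 7975 and 9953 CPM in DMSO and 9143, 8447 and 10770 CPM in GSK-126, and the 8 granule neuron markers were highest in replicate 2, at 3955 CPM in DMSO and 3230 CPM in GSK-126. The part of these cells in the level of Hist1h1c was not tested, and in bulk RNA fewer cells of a type and less RNA per cell cannot be told apart. The other H1 genes had few counts, so Hist1h1c made up most of the H1 sum of 12.8 to 52.6 CPM.

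**Figure D3:**
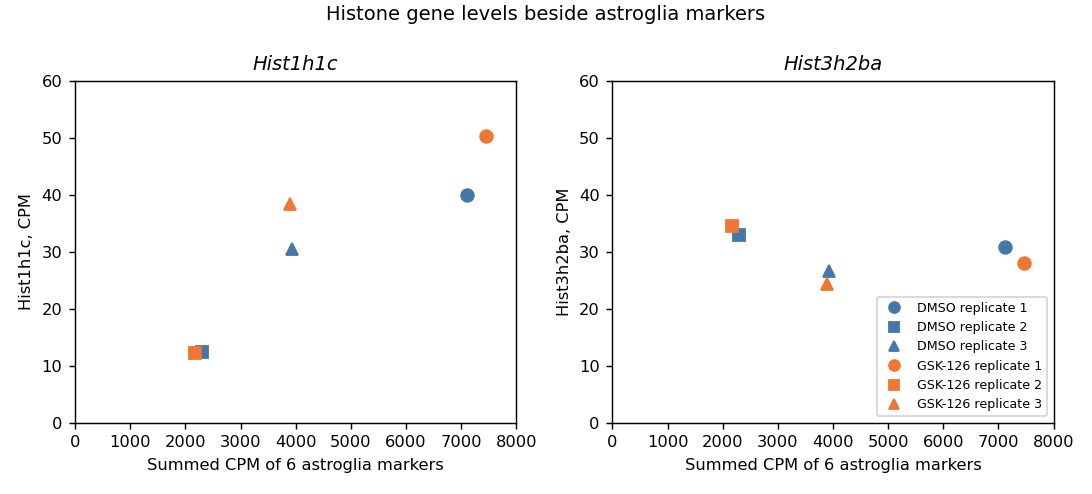
Level of Hist1h1c (left) and Hist3h2ba (right), in CPM, against the summed CPM of 6 astroglia markers in each of the 6 libraries, coloured by treatment with a symbol for each replicate number. Hist1h1c was at 12.5 and 12.3 CPM in the 2 libraries with the lowest sum and at 40.03 and 50.3 CPM in the 2 with the highest, while Hist3h2ba stayed between 24.4 and 34.6 CPM.

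Of the H2A genes, Hist3h2a, Hist1h2al and Hist2h2aa2 were tested. Hist3h2a (ENSMUSG00000078851.4, chr11:58954685-58956830, + strand), which has 1 exon and an annotated 3′ UTR of 1700 bases, was at 9.69, 8.95 and 10.6 CPM in DMSO and at 7.43, 9.15 and 9.48 CPM in GSK-126. The groups overlapped and the log2 fold change was -0.17 (SE 0.20, 95% interval -0.58 to 0.24, adjusted p = 0.679 in edgeR). Its exon shares 708 bases with Trim17 on the same strand, where a read fits both genes.

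Hist2h2aa2 (ENSMUSG00000063954.7, chr3:96239749-96240276, - strand) had the log2 fold change farthest from 0 among the 12. However, without replicate 1 that of Hist1h4i was larger, and that of Hist2h4 also lay farther from 0 in a fit with a pair left out. It was at 2.08, 0.559 and 2.26 CPM in DMSO and at 3.87, 2.37 and 2.27 CPM in GSK-126, from 6 to 51 counts per library. The lowest GSK-126 library lay just over the highest DMSO library, so the groups did not overlap, and each pair was higher with GSK-126 (differences in log2 of CPM + 0.5 of 0.76, 1.44 and 0.01). The log2 fold change was 0.87 (SE 0.44, 95% interval -0.05 to 1.79, adjusted p = 0.261 in edgeR). The exact two-sided permutation test, which ignores the pairs, gave p = 0.1, the smallest that 3 against 3 libraries can give. It must give this value where the groups do not overlap, so it adds nothing to that. With pairs of libraries left out in turn the log2 fold change ran from 0.48 to 1.35. All of its 100-base windows occur elsewhere in the annotation, and its whole exon of 528 bases is covered by Gm20632 on the opposite strand, so the counts are uncertain.

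Hist1h2al (ENSMUSG00000091383.2, chr13:51202727-51203065, - strand) is annotated as a processed pseudogene. It was at 8.54, 6.15 and 10.7 CPM in DMSO and at 11.9, 10.02 and 9.35 CPM in GSK-126, and the groups overlapped. The log2 fold change was 0.32 (SE 0.21, 95% interval -0.11 to 0.76, adjusted p = 0.4 in edgeR). A predicted gene on the opposite strand, Gm44341, shares 109 of its 339 bases and held like counts, with 79, 48 and 115 in DMSO and 129, 70 and 79 in GSK-126 against 74, 66 and 123 and 157, 93 and 70 for Hist1h2al. The strand setting of the counting is not stated. Hist2h2aa2 held counts although Gm20632 covers its whole exon on the opposite strand, so the counting took strand into account. Whether the libraries kept the strand is not given in the sources used here. Reads of Hist1h2al and Gm44341 thus cannot be told apart in the shared bases. All 20 H2A genes overlap a gene on the opposite strand. For Hist3h2a this is Gm44313, with 221 to 369 counts per library against 71 to 122 for Hist3h2a.

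H2B genes gave the highest sum of any type. Hist3h2ba (ENSMUSG00000056895.4, chr11:58948920-58949533, + strand), with 1 exon that ends 169 bases past the stem-loop, was at 30.9, 32.9 and 26.7 CPM in DMSO and at 28.0, 34.6 and 24.4 CPM in GSK-126. The groups overlapped and, unlike for Hist1h1c, replicate 2 was the highest library in both. Its log2 fold change of -0.06 had the narrowest interval of the 12 (SE 0.12, 95% interval -0.32 to 0.19, adjusted p = 0.82 in edgeR).

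Hist1h2bc (ENSMUSG00000018102.5, chr13:23684199-23692908, + strand) is annotated with 2 exons, where 64 of the 70 genes have 1. It was at 10.04, 5.31 and 10.4 CPM in DMSO and at 14.5, 6.03 and 10.8 CPM in GSK-126, with replicate 2 the lowest in both groups, as for Hist1h1c, and with overlapping groups. All 3 pairs were higher with GSK-126, by 0.51, 0.17 and 0.05 in log2 of CPM + 0.5, and the log2 fold change was 0.27 (SE 0.20, 95% interval -0.15 to 0.68, adjusted p = 0.48 in edgeR). At 25.4% of its windows the sequence also occurs in another gene.

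The other H2B genes that were tested, Hist2h2be, Hist1h2be and Hist1h2bg, were added to complete the tested set after their values were seen. Hist2h2be (chr3:96221119-96223738, + strand), of 1 exon, was at 6.23, 7.18 and 9.56 CPM in DMSO and at 6.22, 7.0 and 7.61 CPM in GSK-126 (log2 fold change -0.13, 95% interval -0.58 to 0.33). Hist1h2be (chr13:23583670-23621124, - strand) was at 1.38, 1.12 and 1.48 CPM in DMSO and at 2.20, 1.08 and 1.74 CPM in GSK-126 (log2 fold change 0.31, 95% interval -0.67 to 1.28). The groups overlapped in both genes, and 496 bases of Hist1h2be exons are shared with other genes on the same strand, among them Hist1h1e.

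Hist1h2bg (chr13:23571396-23572013, + strand) was the one tested gene with every GSK-126 library under every DMSO library, at 1.62, 1.21 and 1.83 CPM in DMSO and at 0.909, 0.969 and 1.07 CPM in GSK-126. These values rest on 8 to 21 counts per library. The log2 fold change was -0.64 (SE 0.50, 95% interval -1.69 to 0.40, adjusted p = 0.502 in edgeR). The exact two-sided permutation test gave p = 0.1, the smallest possible, as it must for groups that do not overlap. With Hist2h2aa2 this makes 2 of 12 tested genes whose groups did not overlap, in opposite directions, while 9.44% of all tested genes did not overlap. At 44.9% of its windows the sequence also occurs in another gene.

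**Figure D4:**
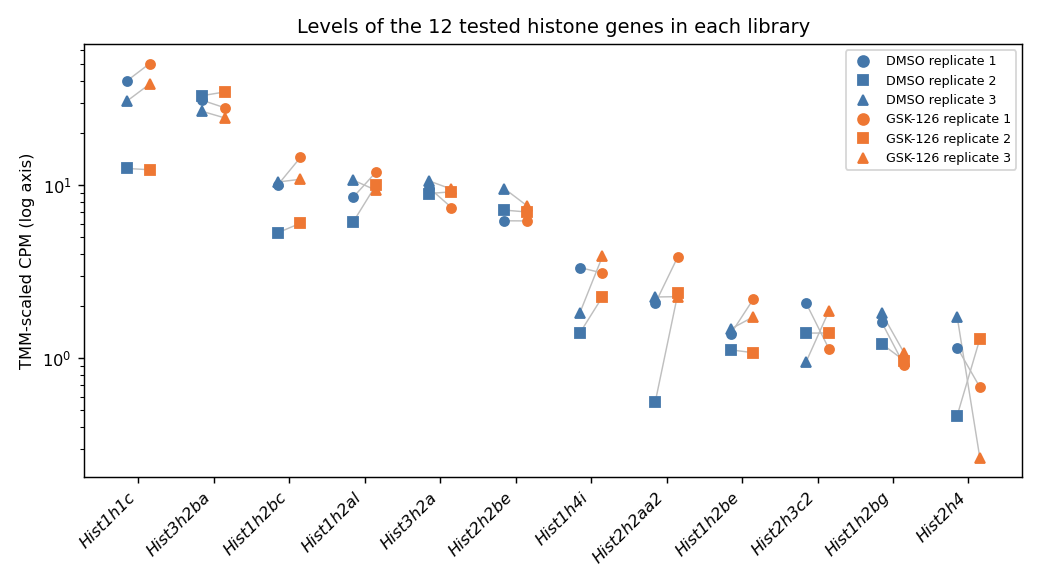
Level of the 12 tested histone genes in each library, as TMM-scaled CPM on a log axis, with lines joining the libraries of a replicate number. Replicate 2 (squares) lay at 12.5 and 12.3 CPM in Hist1h1c, under the other libraries, and the groups separated in Hist2h2aa2 and Hist1h2bg alone.

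H3 genes were low. Hist2h3c2 (ENSMUSG00000081058.5, chr3:96238108-96239127, - strand) was the only one tested, at 2.08, 1.40 and 0.956 CPM in DMSO and at 1.14, 1.40 and 1.87 CPM in GSK-126. The groups overlapped over nearly their whole range. Its log2 fold change was -0.01 (SE 0.50, 95% interval -1.05 to 1.04, adjusted p = 0.995 in edgeR), and the sign depended on the processing. Shared windows made up 61.6% of the gene, and the most frequent partner was Hist2h3c1, the copy that had no count.

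Of the H4 genes, Hist1h4i and Hist2h4 were tested. Hist1h4i (ENSMUSG00000060639.5, chr13:22040636-22041362, - strand) was at 3.35, 1.40 and 1.83 CPM in DMSO and at 3.11, 2.26 and 3.87 CPM in GSK-126, with overlapping groups (log2 fold change 0.52, SE 0.39, 95% interval -0.28 to 1.33, adjusted p = 0.475 in edgeR). Hist2h4 (ENSMUSG00000091405.2, chr3:96261682-96263311, - strand) was at 1.15, 0.466 and 1.74 CPM in DMSO and at 0.682, 1.29 and 0.267 CPM in GSK-126. Its 2 to 20 counts per library gave the widest interval (log2 fold change -0.51, SE 0.67, 95% interval -1.90 to 0.88, adjusted p = 0.72 in edgeR), and without replicate 3 the log2 fold change was 0.29.

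Summed over the genes of a type, the levels differed more between types and replicate numbers than between treatments. The H2B genes summed to 51.1 ± 1.90 CPM (SD, n = 3) in DMSO and 50.8 ± 3.78 CPM in GSK-126, and the H1 genes to 29.1 ± 14.9 and 34.9 ± 20.3 CPM. The H2A genes summed to 22.5 ± 4.77 and 23.4 ± 1.24 CPM, the H3 genes to 2.97 ± 0.689 and 3.03 ± 0.889 CPM, and the H4 genes to 4.69 ± 1.84 and 5.38 ± 0.670 CPM. These sums describe the libraries and carry no test. The mean log2 ratio within pairs was 0.20 ± 0.17 (SD, n = 3 pairs) for H1, 0.08 ± 0.30 for H2A, -0.01 ± 0.14 for H2B, 0.02 ± 0.70 for H3 and 0.27 ± 0.42 for H4, so only for H1 did it exceed the SD. The ratio turned to -0.0771 for H2A without replicate 2 and to -0.388 for H3 without replicate 3, and for H4 it was 0.0655 without replicate 2.

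By the cluster named in the symbol, the 56 Hist1 genes on chromosome 13 held 54.7% of the summed CPM, the 10 Hist2 genes on chromosome 3 held 11% and the 3 Hist3 genes on chromosome 11 held 34.2%. Of the summed CPM of all 70 genes, 8.28% came from Hist1h2al, which lies far from the other 55 genes (chr13:21715763-23934851), and these held 46.4%. The Hist4 gene on chromosome 6, Hist4h4, had 4 counts in all. The Hist1 sum was again low in replicate 2, at 33.9 CPM in DMSO and 37.4 CPM in GSK-126 against 65.0 to 91.4 CPM in the other libraries. The Hist3 sum, from 33.9 to 43.8 CPM, was highest in replicate 2 of both groups.

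**Figure D5:**
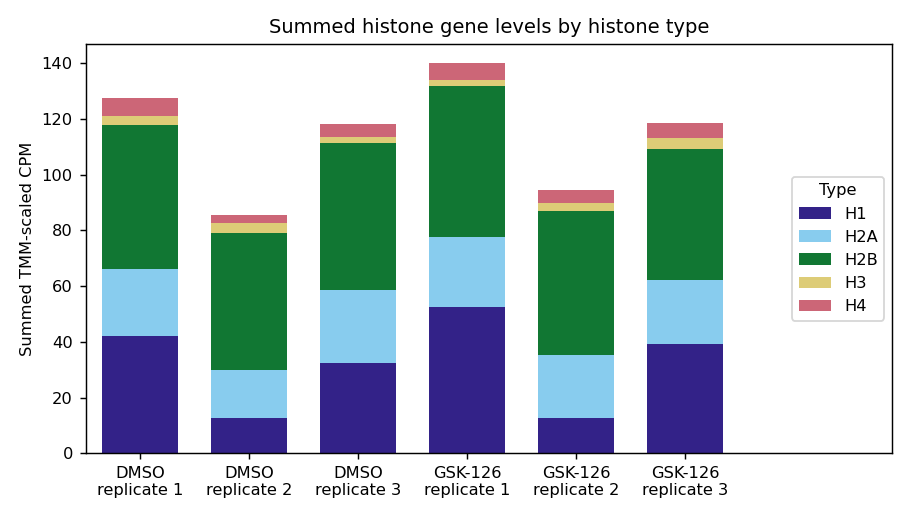
Summed TMM-scaled CPM of the 70 histone genes in each of the 6 libraries, stacked by histone type. The total was 127.5, 85.4 and 118.1 CPM in DMSO and 139.8, 94.5 and 118.6 CPM in GSK-126, with the H1 part lowest in replicate 2 of both groups.

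Genes that act on histones and their mRNAs were read from the same fit. Of 20 genes for histone mRNA synthesis and processing, 0 were called, and 6 had an unadjusted p under 0.05, which 21.5% of all tested genes had. Slbp, which encodes the stem-loop binding protein, was at 31.4 ± 2.77 CPM (SD, n = 3) in DMSO and 35.1 ± 1.10 CPM in GSK-126, with a log2 fold change of 0.16 (adjusted p = 0.462 in edgeR). Npat, the coactivator of replication-dependent histone genes, was at 40.2 ± 4.20 and 41.0 ± 4.89 CPM (log2 fold change 0.03, adjusted p = 0.924 in edgeR). Of the 11 replacement histones, 0 were called and 3 had an unadjusted p under 0.05. The median log2 fold change was -0.09 for the processing genes and -0.02 for the replacement histones.

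Of 22 histone chaperones, which carry histones to and from DNA, 1 rose and 2 fell. That was 13.6% of them, where 8.44% of all tested genes were called. Npm1 rose from 250, 209.8 and 237 CPM to 315.2, 265.5 and 276.5 CPM (log2 fold change 0.30, adjusted p = 0.0102 in edgeR). Cabin1, a part of the HIRA complex that deposits H3.3, fell from 100, 132.6 and 111.6 CPM to 83.8, 83.0 and 69.3 CPM (log2 fold change -0.54, adjusted p = 7.53e-04 in edgeR). Atrx, which with Daxx deposits H3.3 in heterochromatin, fell from 329.4, 457.7 and 375.3 CPM to 278.5, 336.8 and 327 CPM (log2 fold change -0.30, adjusted p = 0.0132 in edgeR). The groups did not overlap for Npm1 and Cabin1, as for 9.44% of all tested genes, and overlapped for Atrx. The median log2 fold change of the chaperones was 0.00.

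Of 17 S phase and proliferation genes, 1 rose and 0 fell, and 15 had a log2 fold change above 0 with a median of 0.17. The share called was 5.88%, against 8.44% of all tested genes. Pcna, the sliding clamp of DNA replication, was called higher (log2 fold change 0.36, adjusted p = 0.0139 in edgeR), going from 69.9, 45.7 and 68.0 CPM to 85.2, 63.2 and 85.9 CPM, with overlapping groups. Top2a, which untangles replicated DNA, was at 78.2 to 125.2 CPM in all libraries with a log2 fold change of 0.01. Without the block, none of the calls in these lists was made. With pairs of libraries left out in turn, Cabin1 stayed called, while the adjusted p of edgeR was 0.066 for Npm1 without replicate 1, and 0.0932 for Atrx and 0.07 for Pcna without replicate 2.

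Some markers of cell types were called too. The median log2 fold change was 0.01 for astroglia and 0.03 for oligodendrocyte lineage markers. It was 0.14 for fibroblast and vascular and 0.13 for microglia markers, with 8 of 8 and 6 of 6 tested genes above 0. It was -0.17 for granule neuron, -0.11 for granule precursor, and -0.32 for inhibitory neuron and Purkinje markers. Over all tested genes 8.44% were called. Of 8 granule neuron markers, 2 rose (Tubb3, log2 fold change 0.40, and Barhl1, 0.33) and 3 fell (Gabra6, log2 fold change -1.19, Rbfox3, -0.59, and Neurod1, -0.47), and of 4 tested granule precursor markers, 0 rose and 2 fell (Ptch1 and Barhl2). S100b rose among 6 astroglia markers, C1qa among 6 microglia markers, Mbp among 6 oligodendrocyte lineage markers, and Acta2 and Col1a2 among 8 tested fibroblast and vascular markers. Gad1 and Gad2 fell among 5 inhibitory neuron and Purkinje markers. With pairs of libraries left out in turn, Gabra6, Rbfox3, Neurod1, S100b, C1qa and Acta2 stayed called. The adjusted p of edgeR rose to 0.287 for Tubb3, 0.437 for Barhl1, 0.0976 for Ptch1 and 0.279 for Mbp without replicate 2, and to 0.0544 for Barhl2 without replicate 3. Col1a2 (adjusted p from 0.0797 to 0.199 in edgeR) and Gad2 (0.0604 to 0.127) were lost whichever pair was left out, and Gad1 without replicate 1 (0.0726) and without replicate 3 (0.166). DESeq2 with the block did not call Tubb3 (adjusted p = 0.381), Barhl1 (0.111), Gad2 (0.103) or Mbp (0.0555). The part of cell composition in the histone values was not tested.

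The histone genes shared promoter motifs, although the RNA data do not bear on them directly. RefSeq promoters of GRCm38.p6, from 250 bases before to 50 after the start, matched 62 of the 70 genes, and 20 of these windows overlap that of another histone gene. CCAAT, searched on both strands like the other motifs, occurred in 85.5% of them against 37.4% of all 32851 promoters. It lay in every H1, H2A, H2B and H3 promoter and in 3 of 12 H4 promoters. TATAAA occurred in 56.5% against 13.6%, and ATTTGCAT in 21% against 1.74%. The last was present in 7 of 18 H2A and 6 of 16 H2B promoters and in 0 of the other types. The bases before the start of Hist3h2ba, the gene with the highest level per kilobase, show 6 of these matches, with CCAAT and the TATA motif in capitals on either strand.
Hist3h2ba (chr11:58948661-58948910, + strand): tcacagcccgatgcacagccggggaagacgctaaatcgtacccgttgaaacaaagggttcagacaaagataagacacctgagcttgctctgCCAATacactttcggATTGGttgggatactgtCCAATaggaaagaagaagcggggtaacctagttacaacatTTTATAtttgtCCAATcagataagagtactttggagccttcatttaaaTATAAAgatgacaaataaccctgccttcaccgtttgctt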

How the data were processed

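Poly-A enriched RNA of 3 DMSO and 3 GSK-126 libraries, grouped by the labels, was analysed. Per the submitters' processing notes and the methods of the study, the authors trimmed reads with Trimmomatic 0.38, aligned them to mouse GRCm38 with STAR 2.7.2b and deposited raw counts of reads on exons per gene from HTSeq. The strand setting and the Gencode release are not given in the sources used here. All 55341 symbols match GENCODE M21, which gave coordinates and overlaps. Lines that name no gene held 58.7% to 60.7% of the reads listed and were left out. Reads that mapped to several places were among them, at 9.32% to 10.4% of the reads listed.

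Counts were tested with edgeR 4.0.16 in R 4.3.3 (TMM factors, filterByExpr, quasi-likelihood test, Benjamini-Hochberg over 16729 genes, adjusted p under 0.05), with the replicate number as a block. Deviations from group means correlated at 0.561, 0.634 and 0.487 for libraries sharing a number, so the numbers were taken to pair the libraries. The others correlated at no more than 0.00638. Deviations sum to 0 within a group, so high values for shared numbers lower the others, which are no separate evidence. The biological coefficient of variation was 9.74% with the block and 24.0% without. The labels do not say what a number marks. With the block, p-values rest on the spread left in these samples after differences between replicate numbers are removed. They do not measure the spread between replicate numbers. No library was a copy of another (smallest chi-square per degree of freedom 9.01). Single genes were also given an exact permutation test (scipy 1.17.1). The fit was tested on simulated data. CPM are TMM-scaled. Shared sequence was counted as 100-base windows of a gene's exons that occur in another gene.

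The members and the gene lists were chosen with earlier results of these data known. Named were members called, the 2 tested members per histone type with the highest CPM per kilobase and the one with the smallest p, and of each list the called genes, at most 3 per direction. Slbp, Npat, Top2a and some replacement histones were named beside these for their role. Alternatives were DESeq2 1.42.0, no block, other scaling factors, other filters on low counts, each pair left out, an adjusted p under 0.01 and the likelihood ratio test. The limit of 3 counts for a count of 0 covers counting error only.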

Additional observations from a re-analysis of the deposited data

How the results depend on the processing

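In each of the 12 alternatives, 0 histone genes were called, with 0 to 2 at an unadjusted p under 0.05. The log2 fold change of Hist2h3c2 changed sign from -0.01 to 0.0223 with DESeq2, 0.0249 with upper-quartile factors, 0.0252 with total counts and 0.0137 without a filter, and leaving out a pair of libraries gave -0.446 to 0.482. Hist2h4 ranged from -1.48 to 0.288 over the left-out pairs, Hist1h4i from 0.242 to 0.912 and Hist1h2al from 0.153 to 0.587. Without the replicate block the 4 calls among genes that act on histones or in S phase (Npm1, Cabin1, Atrx and Pcna) fell to 0 (edgeR, with 0 calls over all genes and a smallest adjusted p of 0.386), and at an adjusted p under 0.01 to 1. The fold changes of the other 10 tested histone genes kept their sign in the alternatives that gave a value. The cause was not tested. Hist1h2bg, Hist2h2aa2 and Hist2h4 have no value with at least 10 counts in every library, since they did not pass it. Depth limits the 58 untested genes, whose highest level in any library was 1.5 CPM.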
